A study of Mus musculus with 4 samples.

Results

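The genes described here encode Wnt ligands, their Frizzled, LRP and Lgr receptors, the R-spondins, the secreted antagonists and a few targets of the pathway. They were chosen by gene symbol, with earlier results of these arrays known, among probe sets to which the platform annotation gives exactly 1 symbol. They comprised 52 of the 18193 genes so annotated, read by 103 probe sets. Mesenchymal stem cells (MSC) are stromal cells that grow on plastic and can form bone, fat and cartilage. The series holds 2 colonic MSC lines, obtained from flushed colon, which were set against 2 bone marrow MSC lines, all 4 from C57BL/6 mice with no treatment or engineered allele in the labels. Each line was a separate culture grown in the same serum-containing medium, lysed at passage 5 to 10 and read on 1 Affymetrix mouse array. The labels call the arrays biological replicates but do not say whether the lines came from separate animals, so the spread between them may be that of cultures.

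Wnt proteins are lipid-modified secreted signals that bind Frizzled receptors together with the coreceptors Lrp5 and Lrp6. In the canonical branch this stabilises beta-catenin, which enters the nucleus and acts with Tcf and Lef factors, while other Wnts work through polarity and calcium routes. R-spondins bind Lgr receptors and keep Frizzled receptors at the cell surface, so they strengthen the signal. Secreted Frizzled-related proteins and Wif1 bind Wnt proteins outside the cell, and Dickkopf proteins act on the LRP coreceptors. In the gut, mesenchymal cells supply Wnt ligands, R-spondins and antagonists to the crypt epithelium, and in bone marrow the pathway favours bone formation over fat.

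Values are the deposited probe set intensities, which have no fixed unit and are comparable between arrays for the same probe set but not between probe sets. The array medians lay between 53.6 and 55.5. On each array between 981 and 1016 probe sets were listed at exactly 1, so values near 1 are a floor. Differences are colonic minus bone marrow on the scale log2(intensity + 13.7), where 1 is a doubling for bright genes and less than the true ratio for dim ones. A gene was tested when the mean log2 value of its brightest probe set lay above the 40th percentile, an intensity of about 31.9. Of the 52 genes, 38 passed and 14 did not. Those under the limit were Wnt1, Wnt2, Wnt2b, Wnt3, Wnt7a, Wnt8a, Wnt8b, Wnt9b, Wnt16, Lrp5, Rspo1, Rspo4, Dkk4 and Sfrp5. No detection call was used, so a dim gene is not described as absent, and a gene dim in both lines of 1 tissue could pass through the other tissue alone.

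The largest separations between the tissues lay among secreted proteins. Sfrp2, Sfrp4 and Wif1 lay under the limit of 31.9 in both colonic lines and above it in both bone marrow lines. Rspo2, the R-spondin receptor gene Lgr5 and the Dickkopf relative Dkk3 were also lower in both colonic lines. Dkk2 ran the other way. The Frizzled genes and Lrp6 had log2 differences between -1.48 (Fzd1) and 1.24 (Fzd3). None of these genes passed limma's test over all 12920 genes at an adjusted p of 0.05, and neither did any other gene, since 0 of 12920 (0%) did. At an unadjusted p below 0.05 stood 10 of the 38 Wnt genes (26.3%), beside 775 of all genes tested (6.00%). With 2 arrays a tissue the smallest p of an exact permutation test is 0.333, so sizes, standard errors and the overlap of arrays are described.

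Overlap was read array by array. Both colonic lines lay above both bone marrow lines in 7 of the 38 Wnt genes (18.4%), beside 18.4% of all genes tested, so that count is no different from the background. Both lay below in 12 of 38 (31.6%), beside 15.1% of all genes. Among those 12, the closest arrays of Dkk1, Wnt6, Fzd2 and Wnt10b were only 0.01 to 0.14 apart on the log2 scale. Those of the others were at least 0.38 apart. A gap of at least 2-fold between the nearest colonic and bone marrow arrays, 1 or more on the log2 scale, was present in 6 genes lower in colonic MSC (15.8%, beside 1.11% of all genes), namely Sfrp2, Rspo2, Sfrp4, Wif1, Lgr5 and Dkk3. In the higher direction there was only Dkk2 (2.63%, beside 1.58%). Leaving out colonic replicate 1 gave 11 genes lower and 3 higher. Without colonic replicate 2 the counts were 6 and 6, without bone marrow replicate 1 they were 8 and 3, and without bone marrow replicate 2 they were 9 and 2. Leaving out an array never narrows a gap between the tissues, so these counts could only stay or rise. They do not measure stability, and the share over all genes, which could only stay or rise too, is not given beside them. The mean was at least 2-fold higher in 6 of 38 genes (15.8%, beside 5.52% of all genes) and at least 2-fold lower in 10 of 38 (26.3%, beside 3.51%). The median difference was -0.22 over the 38 genes and 0.01 over all genes, and the median size of the difference regardless of sign was 0.88 and 0.23. These counts describe named genes chosen with earlier results of these arrays known. Sfrp2, Sfrp4, Wif1 and Lgr5 passed the limit through bone marrow MSC alone, and Wnt10b through bone marrow replicate 2 alone. Dkk2 passed through colonic MSC alone. The filter thus shapes the counts too, in both directions.

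**Figure D1:**
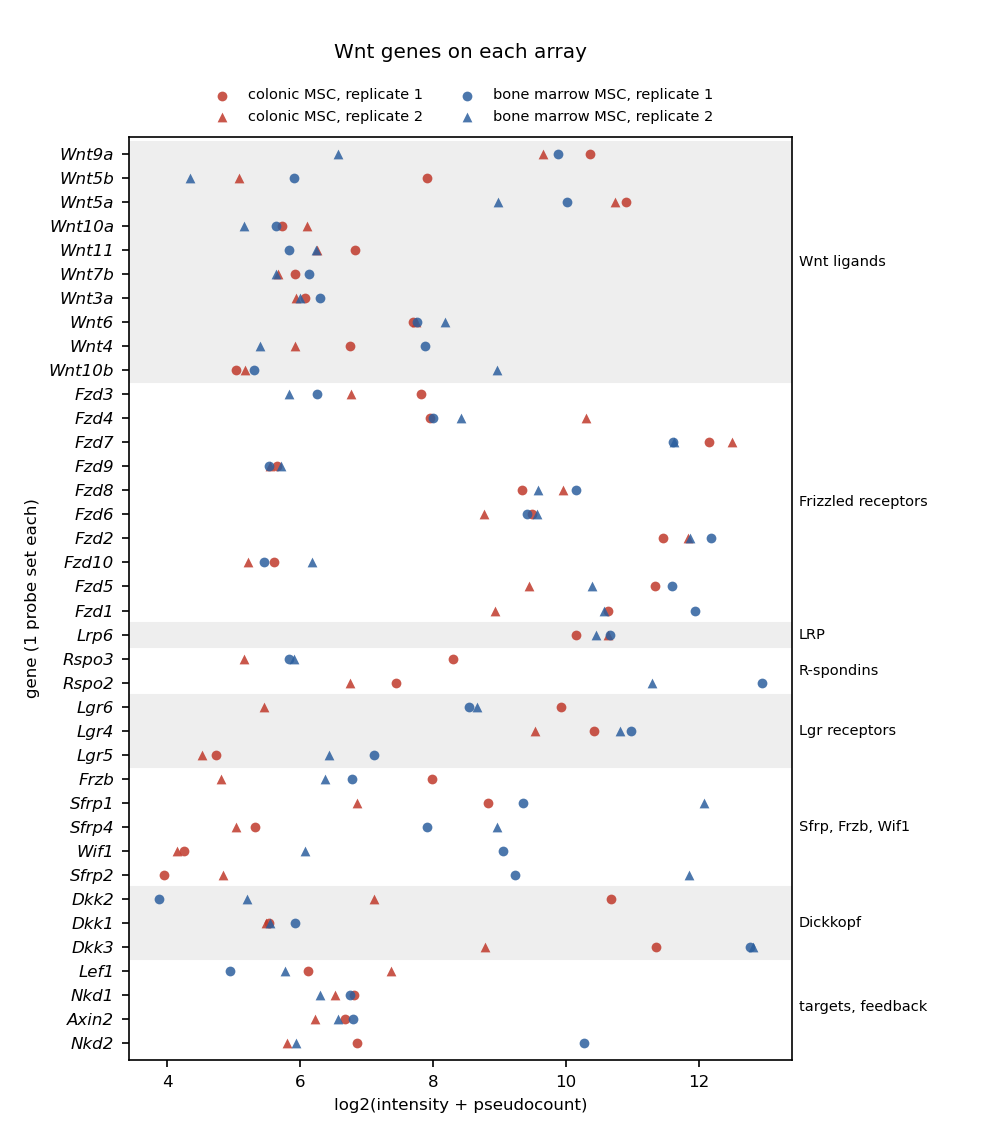
Log2(intensity + 13.7) of the 38 Wnt genes that passed the limit (horizontal axis), 1 row per gene and 1 point per array, with colonic MSC in red and bone marrow MSC in blue, circles for replicate 1 and triangles for replicate 2. Points compare arrays within a row only. Red and blue separate widely for Rspo2, Sfrp2, Sfrp4, Wif1, Lgr5, Dkk3 and Dkk2, and points of the same colour lie far apart in Lgr6, Frzb, Nkd2 and Wnt10b.

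Among the ligands, 10 of 19 genes passed, of which 3 lay above in both colonic lines (beside 18.4% of all genes) and 2 below (beside 15.1%). Wnt5a, a ligand mostly assigned to the non-canonical branch, had intensities of 1897 and 1696 in colonic MSC, against 1025 and 490 in bone marrow MSC. Both colonic values exceeded both bone marrow values, and the log2 difference was 1.32 ± 0.44 (SE, limma adjusted p = 0.727). Its other probe sets gave 1.49 and 1.79, so all 3 that passed ran the same way. Wnt9a, a canonical ligand, was at 1299 and 797 in colonic MSC, against 927 and 81.3 in bone marrow MSC. The tissues overlapped there, and the difference of 1.79 ± 1.16 (SE, limma adjusted p = 0.976) came from bone marrow replicate 2, since without that array it was 0.13.

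Wnt5b, a close relative of Wnt5a, stood at 227 in colonic replicate 1 and 20.2 in colonic replicate 2, against 46.1 and 6.72 in bone marrow MSC. Its difference of 1.37 ± 1.09 (SE, limma adjusted p = 0.976) was -0.04 without colonic replicate 1. Wnt10b, a ligand that favours bone over fat formation in marrow stroma, was at 19.1 and 22.3 in colonic MSC, against 25.9 and 485 in bone marrow MSC. Only bone marrow replicate 2 was bright, and the difference of -2.03 ± 1.24 (SE, limma adjusted p = 0.970) was -0.21 without it. Wnt4 had 93.9 and 47.2 in colonic MSC, against 221 and 28.5 in bone marrow MSC, with overlap. Wnt11, another ligand of the polarity branch, was at 99.5 and 62.8 in colonic MSC, against 43.6 and 62.0 in bone marrow MSC, a separation of 0.01 between the closest arrays. The other ligands that passed, Wnt3a, Wnt6, Wnt7b and Wnt10a, differed by -0.26 to 0.52. Wnt2 missed the limit, with 128 and 10.2 in colonic MSC and 24.5 and 3.48 in bone marrow MSC.

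All 10 Frizzled genes passed the limit, of which 2 lay above in both colonic lines (beside 18.4% of all genes), 1 lay below (beside 15.1%) and 7 overlapped. Fzd7, a receptor with roles in stem cell upkeep, had 4542 and 5765 in colonic MSC, against 3119 and 3162 in bone marrow MSC. The groups did not overlap, the lines of each tissue lay close together, and the difference was 0.70 ± 0.18 (SE, limma adjusted p = 0.611). A dim second probe set of Fzd7 differed by 0.12. Fzd3, known for its part in axon guidance and cell polarity, stood at 211 and 94.9 in colonic MSC, against 63.0 and 43.2 in bone marrow MSC, a difference of 1.24 ± 0.46 (SE, limma adjusted p = 0.813). Its other probe sets gave 0.29, 0.82 and 1.72, all positive. Fzd4, the receptor for norrin as well as Wnt ligands, was bright in colonic replicate 2 alone, at 234 and 1244 in colonic MSC against 243 and 328 in bone marrow MSC.

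Fzd1 was at 1573 and 474 in colonic MSC, against 3915 and 1508 in bone marrow MSC. The arrays overlapped, and the difference of -1.48 ± 0.76 (SE, limma adjusted p = 0.955) was not seen in its second probe set, at 0.05. Fzd5 likewise overlapped, with 2584 and 681 in colonic MSC and 3101 and 1328 in bone marrow MSC. Fzd2 was at 2822 and 3633 in colonic MSC, against 4651 and 3741 in bone marrow MSC, and its difference of -0.38 took the opposite sign, 0.23 and 0.30, in its other probe sets. Fzd8 had 635 and 983 in colonic MSC and 1124 and 749 in bone marrow MSC, without separation. Fzd6, Fzd9 and Fzd10 differed by -0.36, -0.03 and -0.40. The coreceptor Lrp6 was alike in the tissues, at 1126 and 1573 in colonic MSC and 1602 and 1394 in bone marrow MSC, a difference of -0.17 ± 0.29 (SE, limma adjusted p = 0.983).

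**Figure D2:**
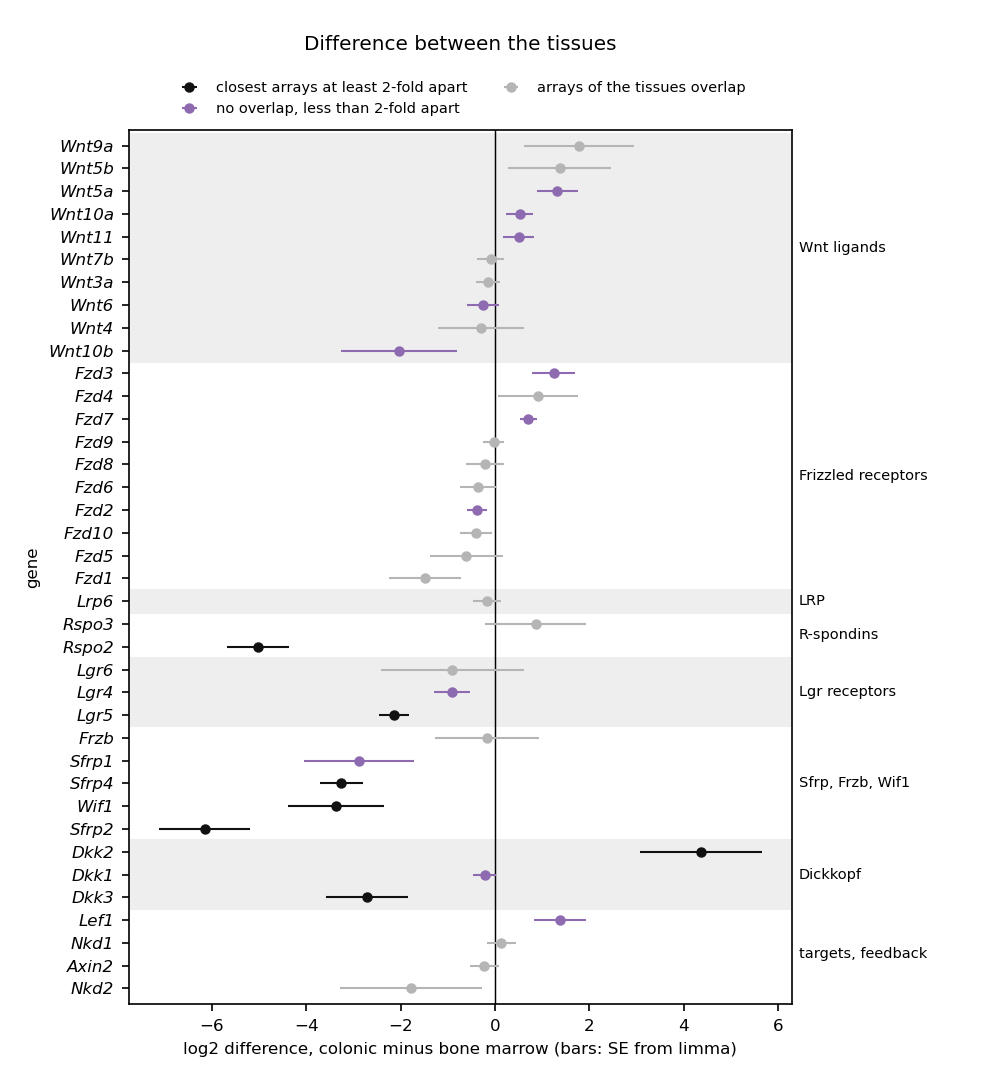
Log2 difference, colonic minus bone marrow (horizontal axis), of the 38 Wnt genes that passed the limit, with bars for the standard error from limma (2 arrays a tissue), ordered by role. Black points mark the 7 genes whose closest arrays were at least 2-fold apart, purple the others without overlap, and grey those with overlap. The Frizzled genes lie between -1.48 and 1.24, while Sfrp2 is at -6.15 and Dkk2 at 4.36.

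Among R-spondins and their receptors, Rspo2 and Lgr5 separated the tissues most. Rspo2, which strengthens Wnt signalling, had intensities of 160 and 94.0 in colonic MSC, against 7899 and 2507 in bone marrow MSC. Both colonic lines were far below both bone marrow lines, with a difference of -5.03 ± 0.66 (SE, limma adjusted p = 0.158), which lay between -5.85 and -4.20 when any single array was left out. A second probe set of Rspo2 was dim on all arrays, at 35.9 and 28.1 in colonic MSC and 64.3 and 20.2 in bone marrow MSC, and differed by -0.17. Rspo3, which supports intestinal stem cells when made by the mesenchyme beneath the crypt, was bright in colonic replicate 1 alone, at 303 and 22.2 in colonic MSC against 43.6 and 46.2 in bone marrow MSC. Its difference of 0.86 ± 1.07 (SE, limma adjusted p = 0.983) was -0.71 without colonic replicate 1.

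The receptor gene Lgr5, a marker of intestinal epithelial stem cells, was dim in colonic MSC, at 12.9 and 9.30, against 124 and 73.1 in bone marrow MSC. The groups did not overlap, and the difference was -2.15 ± 0.32 (SE, limma adjusted p = 0.208), or -1.20 with the table median as pseudocount. Lgr4, the more widely expressed relative, was at 1360 and 731 in colonic MSC, against 2015 and 1778 in bone marrow MSC, a difference of -0.92 ± 0.38 (SE, limma adjusted p = 0.867). Lgr6 separated the colonic lines from each other rather than the tissues, with 960 and 30.3 in colonic MSC and 358 and 391 in bone marrow MSC. Its second probe set also had colonic replicate 1 highest and colonic replicate 2 lowest, with 453 and 14.0 in colonic MSC and 172 and 150 in bone marrow MSC.

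The secreted antagonists that bind Wnt proteins were lower in both colonic lines in 4 of the 5 genes that passed, beside 15.1% of all genes. The median difference over those 5 was -3.26, beside 0.01 over all genes. Sfrp2, Sfrp4 and Wif1 were under the limit in both colonic lines and passed through bone marrow MSC alone. Sfrp5, under the limit in both tissues, was left out. The filter thus shapes that count and that median. Sfrp2 had the largest difference of all the Wnt genes, at 1.73 and 14.9 in colonic MSC, against 586 and 3702 in bone marrow MSC. The colonic values lay near the floor, and the difference was -6.15 ± 0.97 (SE, limma adjusted p = 0.239), or between -7.47 and -4.84 with any single array left out. With the table median as pseudocount the difference was -4.63, and with a pseudocount of 1 it was -7.81. Sfrp4 stood at 26.2 and 19.3 in colonic MSC, against 226 and 488 in bone marrow MSC, a difference of -3.26 ± 0.45 (SE, limma adjusted p = 0.187). Wif1, the Wnt inhibitory factor, was at 5.30 and 3.99 in colonic MSC, against 518 and 53.6 in bone marrow MSC. The colonic lines lay close together near the floor while the bone marrow lines differed widely, and the difference was -3.37 ± 1.02 (SE, limma adjusted p = 0.676), or -2.07 with the table median as pseudocount.

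Sfrp1, which binds Wnt proteins through a Frizzled-like domain, was at 439 and 102 in colonic MSC, against 642 and 4332 in bone marrow MSC. The closest arrays were 0.53 apart on the log2 scale, and the difference of -2.88 ± 1.16 (SE, limma adjusted p = 0.852) was -1.52 without bone marrow replicate 2. A second probe set had 7.91 and 5.67 in colonic MSC and 22.4 and 305 in bone marrow MSC, so it too was brightest in bone marrow replicate 2, while another differed by -0.12. Frzb, a Frizzled-related protein known from cartilage, overlapped between the tissues, with 240 and 14.5 in colonic MSC and 96.0 and 68.9 in bone marrow MSC. Its difference was -0.17 ± 1.09 (SE, limma adjusted p = 0.995), and 1.42 without colonic replicate 2.

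Dickkopf genes did not share a direction. Dkk2, a modulator of LRP coreceptors, was listed at 1626 and 125 in colonic MSC, against 1 and 23.0 in bone marrow MSC. Both colonic values were above both bone marrow values, yet the colonic lines were themselves 3.56 apart on the log2 scale. The difference between tissues was 4.36 ± 1.29 (SE, limma adjusted p = 0.670), and 2.58 without colonic replicate 1. Both bone marrow values lay under the limit, so its size depended on the pseudocount. It was 3.06 with the table median as pseudocount and 6.03 with a pseudocount of 1. Dkk3, a divergent family member that does not act like the other Dickkopf proteins on LRP coreceptors, was at 2602 and 428 in colonic MSC, against 6972 and 7194 in bone marrow MSC. Its second probe set had 2170 and 377 in colonic MSC and 6257 and 5797 in bone marrow MSC, so both probe sets had colonic replicate 2 lowest and both colonic lines below both bone marrow lines. The difference was -2.72 ± 0.87 (SE, limma adjusted p = 0.711). It was -4.01 without colonic replicate 1 and -1.44 without colonic replicate 2. Dkk1, the best known LRP antagonist, was dim on all arrays, at 32.4 and 31.3 in colonic MSC and 46.9 and 32.9 in bone marrow MSC.

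Promoter sequences are shown for genes of opposite direction, Sfrp2 and Wif1 on the low side and Dkk2 on the high side in colonic MSC. Each was dim in both lines of a tissue and had a window. Sfrp4 and Lgr5, also dim in both colonic lines, had no window in the source used. Each window covers the 250 bases before the annotated start, 5′ to 3′ on the gene's strand, from RefSeq on build GRCm38.p6. The windows lie at chr3:83766071-83766320 for Sfrp2, chr10:121033754-121034003 for Wif1 and chr3:132085042-132085291 for Dkk2, all on the plus strand. Capitals mark a TATA box (TATAAA), a TCF/LEF core (CTTTGA) or a GC box (GGGCGG), searched on both strands with no overlap between motifs.
Sfrp2: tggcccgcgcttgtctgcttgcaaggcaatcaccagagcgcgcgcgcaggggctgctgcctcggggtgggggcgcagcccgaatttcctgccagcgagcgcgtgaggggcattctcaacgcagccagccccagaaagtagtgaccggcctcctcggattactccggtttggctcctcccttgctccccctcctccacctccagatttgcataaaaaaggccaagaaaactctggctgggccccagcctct
Wif1: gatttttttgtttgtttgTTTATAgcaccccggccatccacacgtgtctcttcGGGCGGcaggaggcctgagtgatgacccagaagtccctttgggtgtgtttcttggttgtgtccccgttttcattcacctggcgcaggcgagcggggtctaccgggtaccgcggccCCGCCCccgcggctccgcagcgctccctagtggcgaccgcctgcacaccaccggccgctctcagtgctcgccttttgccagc
Dkk2: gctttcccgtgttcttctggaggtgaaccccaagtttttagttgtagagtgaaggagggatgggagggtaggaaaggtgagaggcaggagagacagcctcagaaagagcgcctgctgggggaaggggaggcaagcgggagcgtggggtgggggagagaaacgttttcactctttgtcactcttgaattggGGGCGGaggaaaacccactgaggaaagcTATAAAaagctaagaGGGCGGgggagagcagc

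The Dkk2 window held a TATA box from 32 to 27 bases before the start and a pair of GC boxes. The Wif1 window held GC boxes on both strands and a TATA box far upstream on the opposite strand, while none of these letter strings occurred in the Sfrp2 window. A TCF/LEF core was found in none of the windows shown. Over all 32851 promoter windows, 12.4% held the TATA box, 13.8% the TCF/LEF core and 32.7% the GC box. Among the 41 windows of Wnt genes the shares were 14.6%, 14.6% and 68.3%. CpG dinucleotides occurred at 0.64 of the number expected from base composition in Sfrp2, 0.858 in Wif1 and 0.449 in Dkk2. The median was 0.374 over all windows and 0.735 over those of the Wnt genes. Windows were found for 35 of the 52 genes. A match or its lack describes these letters only.

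Among genes that report or damp canonical signalling, Axin2 and Nkd1 lay close in the tissues. Axin2, a feedback inhibitor induced by beta-catenin in most tissues, was at 89.0 and 61.4 in colonic MSC, against 97.3 and 81.4 in bone marrow MSC, a difference of -0.23 ± 0.31 (SE, limma adjusted p = 0.983). Nkd1, a Dishevelled-binding feedback protein, had 98.5 and 78.1 in colonic MSC and 94.4 and 65.3 in bone marrow MSC. Lef1, a nuclear partner of beta-catenin, stood at 55.5 and 151 in colonic MSC, against 17.2 and 41.0 in bone marrow MSC. Both colonic lines were above both bone marrow lines, with a difference of 1.38 ± 0.55 (SE, limma adjusted p = 0.848). Nkd2 was bright in bone marrow replicate 1 alone, at 102 and 42.0 in colonic MSC against 1222 and 47.9 in bone marrow MSC. All 4 of its probe sets were highest on that array, and the difference of -1.78 ± 1.51 (SE, limma adjusted p = 0.976) was 0.38 without it.

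Lines of the same tissue differed from each other in many of these genes. The colonic lines were at least 2-fold apart in 13 of the 38 Wnt genes (34.2%), beside 13.6% of all genes tested. The bone marrow lines were that far apart in 14 of 38 (36.8%), beside 11.0% of all genes. With 1 array a line these are sizes with no test. In colon, 11 genes were at least 2-fold higher in replicate 1 (28.9%, beside 7.37% of all genes), and 2, Fzd4 and Lef1, in replicate 2 (5.26%, beside 6.23%). The widest colonic gaps on the log2 scale were those of Lgr6 at 4.47, Dkk2 at 3.56, Frzb at 3.17, Rspo3 at 3.14 and Wnt5b at 2.83. In bone marrow, 9 genes were at least 2-fold higher in replicate 1 (23.7%, beside 8.10%), with Nkd2 at 4.33 and Wnt9a at 3.31. Replicate 2 was higher in 5 genes (13.2%, beside 2.92%). These were Dkk2, under the limit in both bone marrow lines at 1 and 23.0, and Wnt10b, Sfrp1, Sfrp2 and Sfrp4. Sfrp2 thus differed by -2.63 between bone marrow replicates 1 and 2, and still the difference between its highest colonic and lowest bone marrow array was -4.39.

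**Figure D3:**
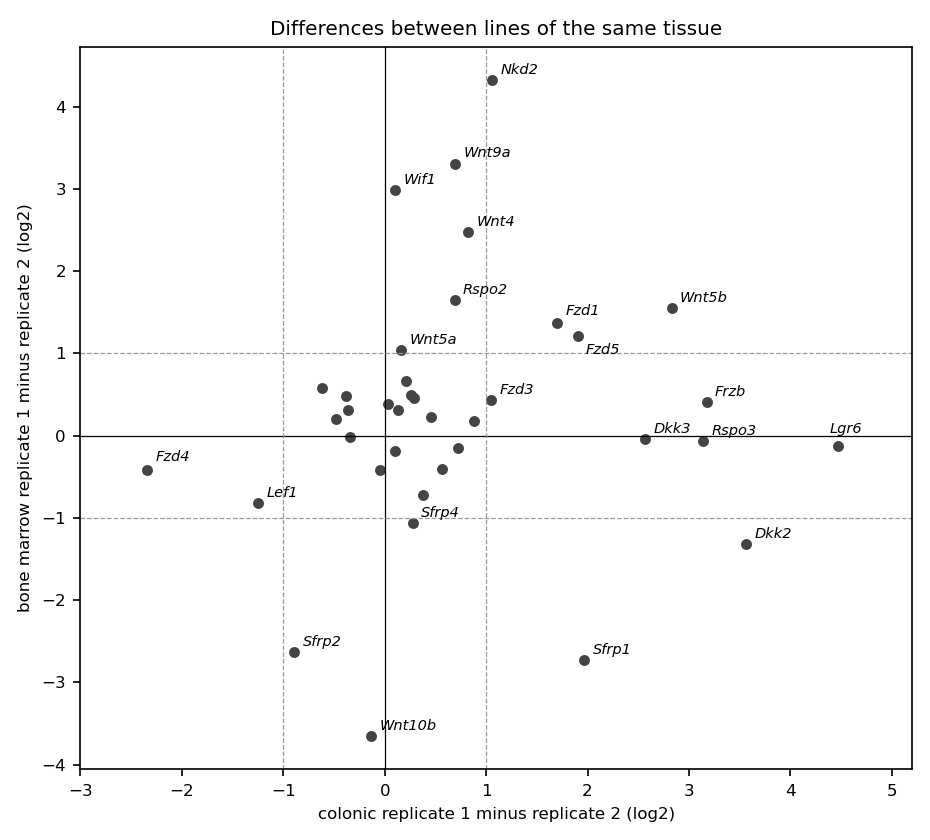
Difference between the lines of a tissue for each of the 38 Wnt genes, with colonic replicate 1 minus 2 on the horizontal axis and bone marrow replicate 1 minus 2 on the vertical axis, both in log2 units. Dashed lines mark 2-fold, and genes past it on either axis are named. Lgr6 and Frzb lie far to the right with little spread in bone marrow, while Nkd2 and Wnt10b lie at the top and bottom.

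Markers of other cell types also differed between the colonic lines. The summed intensity of 6 smooth muscle markers was 32336 and 25616 in colonic MSC, against 22967 and 9573 in bone marrow MSC. Bright probe sets dominate such sums. Cnn1 and Actg2 together made up most of each, and Cnn1 was at only 33.0 in bone marrow replicate 2. Within that list Myh11 was at 1123 and 43.4 in colonic MSC and 41.3 and 16.7 in bone marrow MSC, and Des at 2379 and 47.9 in colonic MSC and 52.4 and 25.1 in bone marrow MSC. The 5 measured markers of enteric glia and neurons summed to 895 and 169 in colonic MSC, against 199 and 167 in bone marrow MSC, mostly through Uchl1 (814 and 100 in colonic MSC, 87.0 and 91.5 in bone marrow MSC), while Sox10, S100b, Gfap and Elavl4 were under the limit. Myh11, Des and Uchl1 were thus highest in colonic replicate 1, like Dkk2, Lgr6, Frzb, Rspo3 and Wnt5b, and their part in those values was not tested. Of the other smooth muscle markers, Actg2 was at 11568 and 12248 in colonic MSC and 8763 and 7332 in bone marrow MSC, and Smtn at 1740 and 1544 in colonic MSC and 2208 and 1055 in bone marrow MSC. Cnn1, at 11529 and 8477 in colonic MSC and 8623 and 33.0 in bone marrow MSC, and Lmod1, at 3996 and 3255 in colonic MSC and 3279 and 1111 in bone marrow MSC, were lowest in bone marrow replicate 2. Krt20, of the intestinal epithelial list, was highest in colonic replicate 1, at 889 and 29.1 in colonic MSC and 29.4 and 15.9 in bone marrow MSC. The 12 genes of that list, 7 of them past the limit, summed to 3148 and 403 in colonic MSC and 6603 and 5510 in bone marrow MSC. Krt19 was lower in both colonic lines, at 1890 and 105 in colonic MSC and 6223 and 5083 in bone marrow MSC. It made up most of each sum except that of colonic replicate 2. Epcam, Vil1, Cdx1, Cdx2 and Muc2 lay under the limit, Epcam at 19.6 and 18.8 in colonic MSC and 8.97 and 14.7 in bone marrow MSC. The 10 macrophage markers, 6 past the limit, summed to 1850 and 2935 in colonic MSC, against 2895 and 1155 in bone marrow MSC, with Ptprc, Adgre1, Fcgr1 and Mrc1 under it. Cd53, of that list, was highest in colonic replicate 2, as were Fzd4 and Lef1, at 155 and 1333 in colonic MSC and 14.0 and 15.7 in bone marrow MSC, and its part in those values was not tested. Lyz2, at 150 and 590 in colonic MSC and 1589 and 31.7 in bone marrow MSC, was highest in bone marrow replicate 1. The other macrophage markers past the limit, Cd68, Csf1r, Itgam and Cd14, were lower in colonic replicate 2 than in colonic replicate 1, with Csf1r at 324 and 244 in colonic MSC and 266 and 148 in bone marrow MSC, and Cd14 at 963 and 573 in colonic MSC and 810 and 735 in bone marrow MSC. The 6 endothelial markers, 2 past the limit, summed to 166 and 152 in colonic MSC and 141 and 68.3 in bone marrow MSC. All 9 measured mesenchymal markers passed the limit, with Vim between 15815 and 16159 and Col1a2 between 14901 and 15827 on the 4 arrays. Nt5e was at 27.6 in colonic replicate 2 and 27.9 in bone marrow replicate 2. Of the 9, 2 lay above in both colonic lines (beside 18.4% of all genes) and 2 below (beside 15.1%). Pdgfra, 1 of the lower, was at 492 and 743 in colonic MSC and 1609 and 2493 in bone marrow MSC, a difference of -1.70. Pdgfrb, the other, differed by -0.43. In such cultures fewer cells of a kind and less RNA per cell cannot be told apart.

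Probe sets of the same gene did not always agree. Among the 38 genes, 15 had more than 1 probe set above the limit. Dkk3, Wnt5a, Lgr6 and Nkd2 ran the same way in each of theirs. Rspo2 rested on a single bright probe set, since the other was dim on all arrays. Fzd1, Fzd2, Fzd4, Fzd5 and Lrp6 had probe sets of opposite sign. Where probe sets were tested separately, Fzd3 and Wnt5a joined Dkk2 among the genes with closest arrays at least 2-fold apart and higher in colonic MSC.

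**Figure D4:**
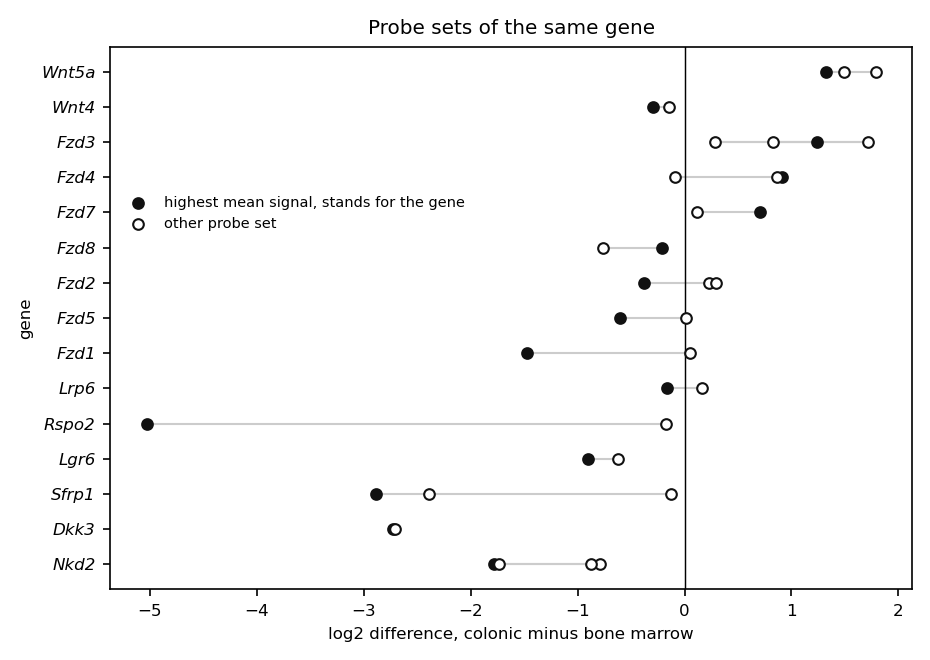
Log2 difference, colonic minus bone marrow, for each probe set above the limit of the 15 Wnt genes with more than 1 such probe set. Filled points are the probe sets with the highest mean, which stand for the gene, and open points the others. The points of Dkk3 coincide, while those of Rspo2 lie at -5.03 and -0.17.

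Other components of the pathway were compared through a list of 51 genes, of which 49 had a probe set and 41 passed the limit. With limma 0 of the 41 passed an adjusted p of 0.05 in either direction and 1 had an unadjusted p below 0.05, beside 6.00% of all genes. Both colonic lines were above both bone marrow lines in 6 of them, beside 18.4% of all genes, and below in 9, beside 15.1%. The median difference was -0.05, beside 0.01 over all genes. Lrp4, a receptor of the LRP family that binds the antagonists sclerostin and Dkk1, had the widest gap. Its intensities were 7.51 and 16.6 in colonic MSC, against 102 and 131 in bone marrow MSC, a difference of -2.35 ± 0.30 (SE, limma adjusted p = 0.151). Core cytoplasmic components differed little. Beta-catenin, Ctnnb1, was at 9944 and 10391 in colonic MSC and 10120 and 9686 in bone marrow MSC, a difference of 0.04 ± 0.09 (SE, limma adjusted p = 0.984). Wls, which escorts Wnt proteins out of the cell, had 6759 and 5390 in colonic MSC and 6342 and 5990 in bone marrow MSC.

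Means were at least 2-fold higher in 3 genes of that list (beside 5.52% of all genes) and at least 2-fold lower in 3 with Lrp4 (beside 3.51%), and none passed the test. The Dishevelled-binding genes Dact3 and Dact1 differed by 1.52 ± 0.74 and 1.26 ± 1.00 (SE). Among Groucho corepressors, Tle1 stood at 1051 and 577 in colonic MSC, against 444 and 298 in bone marrow MSC, and Tle2 at 273 and 516 in colonic MSC, against 1403 and 689 in bone marrow MSC. Neither gene overlapped between the tissues. Bcl9l, a beta-catenin cofactor, was at 2622 and 2829 in colonic MSC, against 3090 and 13713 in bone marrow MSC, so bone marrow replicate 2 carried its difference of -1.25. Tcf7l2, the nuclear partner of beta-catenin prominent in gut, differed by -0.99 ± 0.38 (SE, limma adjusted p = 0.837). Of 12 genes known as Wnt targets in various tissues, 9 passed the limit, 0 passed an adjusted p of 0.05 with limma, 0 had an unadjusted p below 0.05 and 0 differed by 2-fold. Ccnd1, the cyclin D1 gene, was at 8787 and 11063 in colonic MSC and 10866 and 8176 in bone marrow MSC, and the list's median difference was 0.02.

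**Figure D5:**
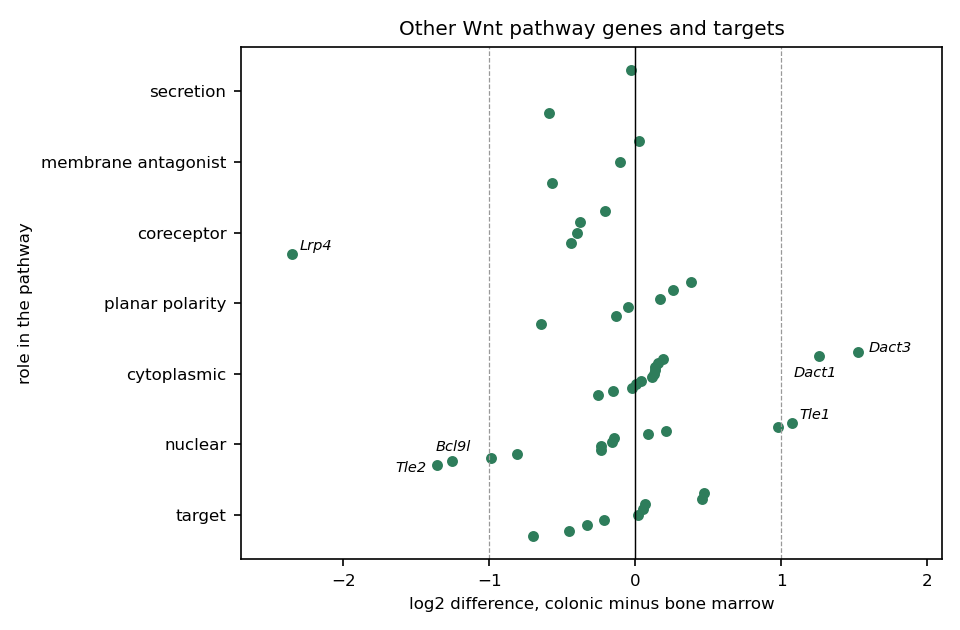
Log2 difference, colonic minus bone marrow, for the 41 other pathway genes and 9 targets that passed the limit, 1 point per gene, in rows by role. Dashed lines mark 2-fold. Lrp4 lies at -2.35, and the 9 targets lie within 2-fold.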

How the data were processed

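Amplified, biotin-labelled RNA of the 4 lines was read on Affymetrix MOE230.2 arrays, per the labels' protocols and the series design text. The authors deposited linear intensities, 1 for each probe set and array, a unit read from the values, while summarisation, background correction and scaling were not given in the sources used here. Of 45101 probe sets, 64 controls were left out, and 34945 had 1 symbol in the platform annotation, 932 several and 9160 none. All 52 symbols of the Wnt genes matched current RefSeq symbols through their gene IDs.

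Intensities became log2(intensity + 13.7), the pseudocount being 0.25 of the table median of 54.6. The probe set with the highest mean log2 value stood for its gene. Tissues were compared over 12920 genes with limma 3.58.1 in R 4.3.3 (lmFit, eBayes with an intensity trend, tissue the sole term, two-sided p, Benjamini-Hochberg adjustment over all genes). Residual degrees of freedom numbered 2, and the procedure was tested on simulated data. The genes and lists were chosen with earlier results of these data known. Genes were given array by array when they differed by at least 2-fold or were among the 10 with the highest mean; others given array by array were picked after their values were seen. The number of arrays limits the precision. Alternatives are listed with their effect in the closing section.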

Additional observations from a re-analysis of the deposited data

How the results depend on the processing

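Each array was left out in turn, with a lone array taken to vary like those of the other tissue, and the other settings were a replicate block, robust eBayes, no intensity trend, each probe set tested separately, the mean of probe sets, filtering at the 60th percentile or not at all, pseudocounts of the table median or 1, median centring and quantile normalization. The count of all genes past an adjusted p of 0.05 was 0. It became 15 with robust eBayes, 13 with no intensity trend, 12 with the mean of probe sets, 15 when filtering at the 60th percentile, 15 with a pseudocount of 1, 17 with median centring and 13 with quantile normalization, and lay between 0 and 33 with an array left out, reaching 33 without colonic replicate 1. For the Wnt genes it was 0 under each of these but between 0 and 1 with an array left out, the gene being Dkk3 without colonic replicate 1. It was 0 for the other pathway genes and the targets throughout. The count of Wnt genes with closest arrays at least 2-fold apart and lower in colonic MSC was 6, and 3 when filtering at the 60th percentile, which left 18 Wnt genes, 4 with a pseudocount of the table median (Lgr5 and Wif1 no longer that far apart), 5 with a pseudocount of 1, where Wif1 was under the filter, and between 6 and 11 with an array left out. The count of those higher was 1, and 0 with that filter, 3 with each probe set tested separately, and between 2 and 6 with an array left out. With an array left out neither count could fall, since a gap never narrows, so those ranges do not measure stability.

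Of 534 recomputed differences of single Wnt genes, 503 kept their direction and their side of the threshold, 1 passed it and 30 took the opposite sign. No filter, filtering at the 60th percentile, no intensity trend, robust eBayes and the replicate block leave the log2 difference of a gene they keep unchanged. So does the mean of probe sets for a gene with 1 probe set above the limit. Under those settings the direction could not change, so the 503 overstates how stable it was. Median centring shifted every difference by the same small amount, which changed no sign. Frzb was at 0.066 with a pseudocount of the table median. Fzd2 was at 0.049 with the mean of probe sets, and its other probe sets gave 0.30 and 0.23. Other probe sets gave 0.050 for Fzd1, -0.090 for Fzd4, 0.012 for Fzd5 and 0.16 for Lrp6. With an array left out the ranges were -1.76 to 1.42 for Frzb, -0.26 to 2.09 for Fzd4, -1.56 to 0.35 for Fzd5, -0.73 to 5.6e-04 for Fzd6, -0.52 to 0.098 for Fzd8, -0.12 to 0.066 for Fzd9, -3.14 to 1.33 for Lgr6, -0.40 to 0.073 for Lrp6, -0.091 to 0.36 for Nkd1, -3.94 to 0.38 for Nkd2, -0.71 to 2.43 for Rspo3, -0.30 to 0.0062 for Wnt3a, -1.54 to 0.94 for Wnt4, -0.045 to 2.78 for Wnt5b and -0.33 to 0.16 for Wnt7b. The causes were not tested beyond what leaving out the array shows.

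The replicate numbers are shared between the tissues, but nothing says that they pair the lines, and the deviations of same-numbered arrays correlated with r = 0.106 across genes. With the replicate block 0 genes passed an adjusted p of 0.05, and for the Wnt genes the count was 0.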
